A study of Mus musculus with 36 samples.

Results

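In the mouse heart, 10 genes of the semaphorin and endothelin pathways that pattern the cardiac outflow tract were followed through development and into adult life. They were taken by gene symbol from the array's annotation and comprise the secreted ligands Sema3a, Sema3c and Sema3d, their receptors Plxnd1, Nrp1 and Nrp2, the peptide Edn1 with its processing enzyme Ece1, and the endothelin receptors Ednra and Ednrb. All 10 genes were found, among 20701 on the array, and were read by 26 of its 45101 probe sets, each a group of short oligonucleotides read together as 1 value. Of the 26 probe sets, 18 had a mean above 5 on the log2 scale in at least 1 stage, the study's limit for an expressed gene, and each of the 10 genes had at least 1 such probe set.

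Class 3 semaphorins are secreted guidance proteins that bind neuropilins, which pass the signal on through plexins. In the forming heart, Sema3c made in the outflow tract attracts cardiac neural crest cells, which divide the common outlet into aorta and pulmonary trunk, and Plxnd1 on endothelium is needed for the same process. Endothelin-1 is made as a large precursor, is released in active form by endothelin converting enzyme 1, and acts through the receptor Ednra on neural crest cells of the pharyngeal arches and outlet. Ednrb binds all endothelins and is best known in neural crest cells that give rise to melanocytes and enteric neurons, and in endothelium.

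Hearts of OF1 (Oncins France 1) mice, with no treatment or allele given in the labels, were sampled daily from E10.5 to E19.5 and in young (10 weeks) and old adults. The old adults were 10 months old in the methods and 14 months old in the design text of the labels, and nothing computed here depends on that age. The 36 arrays gave 3 for each of 12 stages. Sexes were mixed on every array of the first 2 days, and later stages had 1 female, 1 male and 1 mixed array. RNA came from whole homogenized hearts, so fewer cells of a type and less RNA per cell cannot be told apart in any value below, and the outflow tract was not sampled on its own.

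Values are log2 intensities made by the authors' robust multi-array average (RMA), which includes a quantile normalization before probes are summarised, and are called levels here. The summarised levels do not share 1 distribution. Their array medians ran from 4.002 to 4.196, and a further quantile normalization changed the results. A log2 difference of 1 is a change by a factor of 2. Each gene was read from the probe set with its highest mean over all arrays, and levels of different genes were not compared with each other. Stages were compared in limma, a linear model with moderated variances, and a difference was called at a Benjamini-Hochberg adjusted p under 0.05 over all probe sets.

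The tissue label fitted the marker genes. The mean level of 6 cardiomyocyte markers lay between 11.04 and 12.25 on the arrays of E10.5, E14.5, E19.5, young and old adult, whereas none of 4 liver markers reached 5 at any stage, although the labels' extraction protocol names liver. In all 10 stages with sexed arrays, Xist was higher on the female and Ddx3y on the male array, by as little as 0.24 for Xist. Spiked-in hybridization controls, which carry no mouse RNA, averaged 9.90 ± 0.39 (SD, n = 3) at E10.5, 11.16 ± 0.21 by E19.5, 12.17 ± 0.22 in the young and 11.37 ± 0.20 in the old adult. A prefix in the sample titles begins with the female array of E16.5 and so goes with later stages. Only E16.5 holds arrays with and without it, the female array against the male and the mixed one. In models with stage means the prefix term therefore rests on E16.5 alone and cannot be told apart from sex there. Models with either as a covariate were run, and values from them stand beside many of the results they change or in the closing section.

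The promoter sequences of the members whose levels differ most between stages are shown here, because the members are compared below for what they share beyond their pathway. RefSeq (GRCm38.p6) held a promoter for all 10 members, 250 bases before to 50 after the transcript start, 13 in all since Ece1 has several. Capitals mark matches on either strand to GATAA, the core letters bound by GATA factors, to GGGCGG, the GC box, and to TATAAA, the TATA box.
Sema3c, chr5:17574566-17574865, plus strand: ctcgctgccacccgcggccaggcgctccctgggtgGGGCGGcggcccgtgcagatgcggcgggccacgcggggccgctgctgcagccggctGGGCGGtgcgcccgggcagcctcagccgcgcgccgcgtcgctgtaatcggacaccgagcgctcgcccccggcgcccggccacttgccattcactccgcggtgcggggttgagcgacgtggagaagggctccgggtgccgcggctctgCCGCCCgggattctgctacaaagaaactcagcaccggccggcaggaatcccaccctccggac
Nrp2, chr1:62703067-62703366, plus strand: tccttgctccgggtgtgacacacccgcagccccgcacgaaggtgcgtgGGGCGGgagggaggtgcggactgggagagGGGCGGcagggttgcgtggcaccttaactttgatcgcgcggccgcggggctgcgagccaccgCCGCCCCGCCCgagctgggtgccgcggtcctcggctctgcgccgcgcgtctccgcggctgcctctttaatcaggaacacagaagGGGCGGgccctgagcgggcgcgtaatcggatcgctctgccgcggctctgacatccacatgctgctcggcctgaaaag
Ednra, chr8:77724403-77724702, minus strand: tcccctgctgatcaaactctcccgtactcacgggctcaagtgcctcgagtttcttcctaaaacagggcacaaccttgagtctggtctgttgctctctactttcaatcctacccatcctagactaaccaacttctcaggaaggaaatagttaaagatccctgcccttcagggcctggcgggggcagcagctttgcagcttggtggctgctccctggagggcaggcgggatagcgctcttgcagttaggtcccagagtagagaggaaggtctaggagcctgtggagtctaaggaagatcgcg
Ednrb, chr14:103843652-103843951, minus strand: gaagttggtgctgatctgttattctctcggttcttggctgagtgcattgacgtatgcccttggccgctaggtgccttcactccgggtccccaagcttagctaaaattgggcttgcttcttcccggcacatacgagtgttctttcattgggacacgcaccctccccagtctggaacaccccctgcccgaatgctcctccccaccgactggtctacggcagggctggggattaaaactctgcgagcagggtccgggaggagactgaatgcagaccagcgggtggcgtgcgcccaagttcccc
The Sema3c promoter held 3 GC boxes in a window of 75.7% G and C, and the Nrp2 promoter held 5, 2 of which overlap by 1 base, in a window of 70.7%. The Ednra and Ednrb windows, at 54.7% and 58.7%, held no match to any of the 3 motifs. Among the other members only Plxnd1 and Edn1 had a GATAA match, and no member promoter held TATAAA. Of all 32851 promoters in the table, 35.7% held GGGCGG, 25.4% GATAA and 13.6% TATAAA, and the median share of G and C was 52.7%. A match is a run of letters and not a bound site, and a missing match says nothing of a factor.

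Sema3c, the ligand that draws neural crest into the outlet, was high until E12.5 and then fell. The 3 arrays of E10.5 read 8.17, 7.89 and 8.03, those of E11.5 read 8.08, 8.14 and 7.80, and those of E12.5 read 8.003, 8.05 and 7.97. At E13.5 they were 6.96, 6.97 and 6.59, at E14.5 5.39, 5.93 and 6.38, and at E19.5 6.09, 5.50 and 5.24. All 9 arrays up to E12.5 lay above every later array, and the E13.5 arrays lay below them and above every array of E14.5 to E19.5. Young adults had 5.92, 6.24 and 6.53, and old adults 6.26, 4.87 and 6.98, the widest spread of the gene at any stage. Sema3c was 5.35-fold higher at E10.5 than at E19.5, with a log2 difference of 2.42 ± 0.33 (SE, n = 3 against 3, adjusted p = 5.69e-07), and E11.5 and E12.5 differed from E19.5 by 2.40 each. At E13.5 the difference from E19.5 was 1.23 ± 0.33 (adjusted p = 0.00769), and from E14.5 to E18.5 it ranged from 0.07 to 0.37 and did not pass. Neither daily step of the fall was called, that from E12.5 to E13.5 at -1.17 ± 0.33 (adjusted p = 0.0643) and that from E13.5 to E14.5 at -0.94 ± 0.33 (adjusted p = 0.967). The slope over E10.5 to E14.5 was -0.54 ± 0.08 per day (adjusted p = 5.97e-05), against -0.06 ± 0.05 over E14.5 to E19.5 (adjusted p = 0.411), in fits added after the values were seen, and the difference between the 2 slopes was not tested. E10.5 was 3.48-fold above young adult (log2 difference 1.80 ± 0.33, adjusted p = 2.43e-05). With the hybridization controls as a covariate this last difference was 0.11 (adjusted p = 0.927), while that from E19.5 was 1.48 ± 0.38 (adjusted p = 0.00439). The dimmer probe set of the gene, with no stage mean above 5, ran the same way (0.76 ± 0.19 for E10.5 against E19.5).

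**Figure D1:**
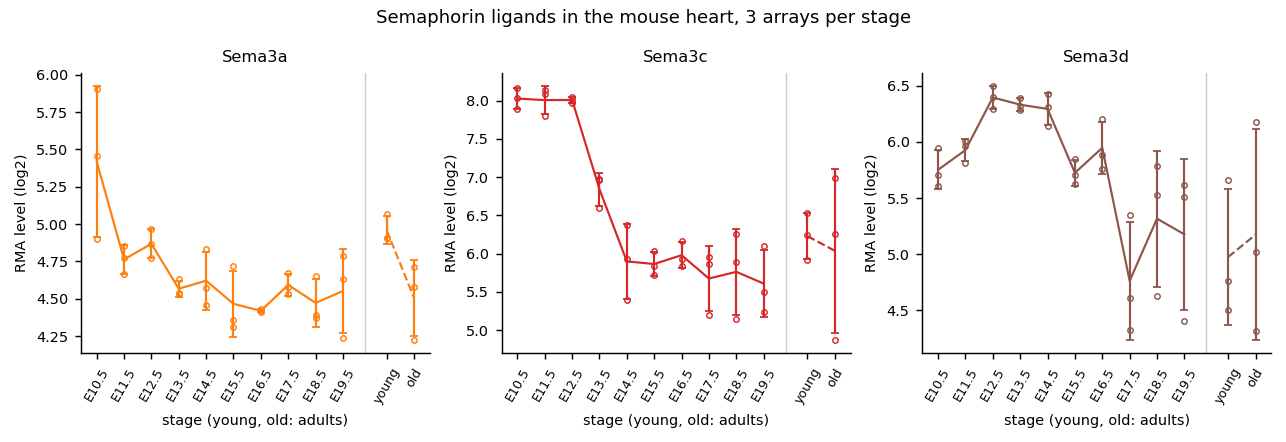
Levels of Sema3a, Sema3c and Sema3d by stage. Each panel plots the RMA level (log2) of 1 gene against stage; open circles are single arrays, lines and bars the mean ± SD of 3 arrays, and the dashed line joins the adult stages, set apart by a vertical line. Sema3c sits near 8 until E12.5 and near 6 from E14.5, while Sema3d is highest from E12.5 to E14.5.

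Sema3d, which guides endothelial cells of the pulmonary veins, had a peak in mid-gestation instead. Its levels were 5.61, 5.71 and 5.94 at E10.5, 6.29, 6.50 and 6.40 at E12.5, 6.39, 6.28 and 6.32 at E13.5 and 6.31, 6.15 and 6.43 at E14.5. At E17.5 they were 5.35, 4.61 and 4.33, and in young adults 4.76, 4.50 and 5.66. The arrays of E12.5 to E14.5 all lay above those of E10.5 and E17.5. Against E19.5 the gene was higher at E12.5 by 1.22 ± 0.34 (adjusted p = 0.00672), at E13.5 by 1.16 (adjusted p = 0.0159) and at E14.5 by 1.12 (adjusted p = 0.0235), whereas E10.5 did not differ past the limit (0.58 ± 0.34, adjusted p = 0.16). Over E10.5 to E14.5 the level rose by 0.15 ± 0.03 per day (adjusted p = 0.00217), and over E14.5 to E19.5 it fell by 0.23 log2 per day (adjusted p = 0.0137), again in the added fits. A straight line over all embryonic days gave -0.12 ± 0.03 per day (adjusted p = 0.00104). With the title prefix as a covariate that slope was 0.01 (adjusted p = 0.79). The largest daily step was from E16.5 to E17.5, where the prefix sets in (-1.19 ± 0.34, not called, adjusted p = 0.315). On embryonic arrays with the prefix alone the slope was 0.004 ± 0.16 (adjusted p = 0.997), and on those without it 0.02 ± 0.03 (adjusted p = 0.682). The second probe set of Sema3d, with every stage mean below 5, did not rise past the limit over E10.5 to E14.5 (0.03 ± 0.07 per day, adjusted p = 0.774) and fell over E14.5 to E19.5 (-0.10 ± 0.03, adjusted p = 0.0374). Its E12.5 and E13.5 levels exceeded those of E19.5 by 0.97 (adjusted p = 0.00335) and 0.87 (adjusted p = 0.0121), and that of E14.5 did not pass (0.34, adjusted p = 0.41). Against young adult, Sema3d was higher at E10.5 by 0.78 ± 0.34 (adjusted p = 0.0455), a call lost without any 1 of 5 of the 6 arrays compared (0.54 to 0.85, against 1.12 without the female young adult array). With the hybridization controls as a covariate it turned to -0.68 (adjusted p = 0.472).

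Sema3a, a repellent for axons and for cells that carry neuropilin-1, was highest at E10.5, with 5.46, 5.91 and 4.90. At E11.5 its arrays read 4.85, 4.77 and 4.66, and every array of E10.5 lay above them. From E13.5 to E19.5 the stage means lay between 4.42 and 4.62, below the limit of 5. The fall from E10.5 to E11.5 was -0.66 ± 0.17 (adjusted p = 0.0363), and E10.5 exceeded E19.5 by 0.87 ± 0.17 (adjusted p = 0.000163). Under other processing choices the difference from E19.5 ranged from 0.525 to 1.552. Of 16 such choices 15 kept its direction and call, and the highest adjusted p was 0.06. E10.5 against young adult gave 0.46 ± 0.17 (adjusted p = 0.0224), which was -0.07 (adjusted p = 0.758) when each array was centred on the median of its brighter probe sets. That call was also lost without the first or second E10.5 array (0.44 and 0.22) or without the male or female young adult array (0.44 each). The female and male arrays of young adult carried the same level for this probe set, 4.905. The other 2 probe sets of Sema3a had every stage mean below 5 and differed by 1.84 ± 0.26 and 1.80 ± 0.18 between E10.5 and young adult.

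Nrp2, the neuropilin that binds Sema3c and Sema3f and is also found on venous and lymphatic endothelium, rose from E11.5 onward in its brightest probe set. The levels there were 5.97, 5.65 and 5.43 at E10.5, 5.26, 5.20 and 5.27 on the next day, 6.13, 5.90 and 6.05 at E14.5, 7.07, 7.10 and 7.29 at E19.5, 8.43, 8.23 and 8.51 in the young adult and 8.36, 8.45 and 8.03 in old adults. In that probe set every adult array lay above every embryonic array, and all arrays of E17.5 to E19.5 lay above those of E16.5 and before. E10.5 was 6.52-fold below young adult (log2 difference -2.71 ± 0.15, adjusted p = 4.8e-16) and 2.77-fold below E19.5 (-1.47 ± 0.15, adjusted p = 2.49e-09). With the hybridization controls as a covariate these 2 differences were -2.31 ± 0.28 and -1.25 ± 0.19, both still called. E19.5 in turn was 2.35-fold below young adult (-1.23 ± 0.15, adjusted p = 7.83e-08). The other 2 expressed probe sets of Nrp2 moved the same way by less. E10.5 was below young adult by 2.34-fold and 2.26-fold in them (-1.22 ± 0.16 and -1.17 ± 0.17) and below E19.5 by 1.72-fold and 2.16-fold, all called. From E19.5 to young adult 1 of them differed by -0.44 ± 0.16 (adjusted p = 0.038) and the other by -0.07 ± 0.17, not called (adjusted p = 0.816), and the arrays of the second overlapped between these stages. The slope of the brightest was 0.21 ± 0.01 per day (adjusted p = 1.53e-13), and it was 0.11 ± 0.04 over E10.5 to E14.5 and 0.23 ± 0.03 over E14.5 to E19.5. All 3 probe sets of the gene rose over embryonic days, at 0.15 to 0.21 per day. Of 4 lymphatic endothelial markers, 3 were lower at E10.5 than at E19.5 and none higher, where 23.7% of all probe sets were lower and 21.8% higher. The mean level of these markers ran from 5.20 to 5.58 at E10.5, from 6.09 to 6.33 at E19.5 and from 5.71 to 6.19 in young adults. Their part in the change of Nrp2 was not tested.

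Nrp1, the neuropilin that serves both Sema3a and vascular endothelial growth factor, was read by 4 probe sets that did not follow 1 course. The brightest had stage means between 9.73 and 10.38 in the embryo, and the 10 embryonic stages did not differ past the limit (moderated F test, adjusted p = 0.0687). Its slope of -0.01 ± 0.02 per day did not pass (adjusted p = 0.71), and its sign turned under 2 rescalings of the arrays, a further quantile normalization and centring (0.03 each). That flat line joined a rise of 0.07 ± 0.03 per day over E10.5 to E14.5 (adjusted p = 0.0448) and a fall over E14.5 to E19.5 (-0.12 ± 0.04, adjusted p = 0.0286), both called in the added fits. On embryonic arrays without the title prefix the slope was 0.07 ± 0.02 (adjusted p = 0.000727). All 4 probe sets rose over E10.5 to E14.5, at 0.07 to 0.42 per day, whereas over E14.5 to E19.5 the other 3 gave -0.09, 0.03 and 0.07 and did not pass. The dimmest of the 4 read 7.28, 6.81 and 6.49 at E10.5 and 8.75, 8.74 and 8.54 at E19.5, with no overlap, a difference of -1.82 ± 0.28 (adjusted p = 4.67e-06). Over the 12 stage means the brightest probe set correlated with the other 3 at r of 0.22 to 0.77, a description of 1 set of arrays. Which transcripts each probe set reads was not examined, so no direction is given for the gene over the whole of embryonic life. Plxnd1, the plexin that receives semaphorin signals in endothelium, read 7.84, 7.94 and 7.71 at E10.5 and, higher, 8.49, 8.23 and 8.57 on E19.5. The 2 sets of arrays did not overlap, and the difference was -0.60 ± 0.13 (adjusted p = 0.000471), a call lost with the title prefix as a covariate (-0.54, adjusted p = 0.136). That covariate is set by the E16.5 arrays alone, so the lost call does not separate stage from prefix. Young adults, at 8.30, 7.93 and 8.34, differed from E10.5, which was lower, with overlapping arrays (-0.36 ± 0.13, adjusted p = 0.0201), and that call was lost without the third E10.5 array, the male or the female young adult array (-0.30, -0.30 and -0.28).

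**Figure D2:**
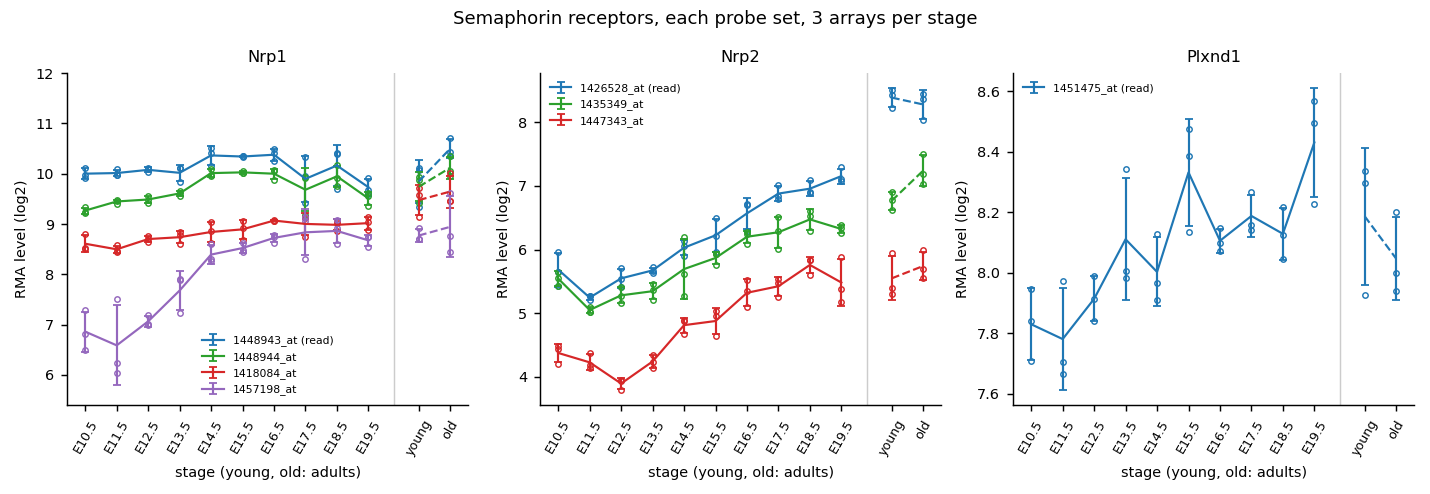
Levels of the semaphorin receptors by stage for every probe set. Each panel plots the RMA level (log2) against stage, with single arrays as open circles, the mean ± SD of 3 arrays as lines and bars, and colours for probe sets; the probe set used for the gene is marked as read. The 3 probe sets of Nrp2 rise over the embryonic days, whereas only the lowest of Nrp1 climbs steeply before E14.5.

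Edn1, the peptide ligand, had its highest stage mean at E19.5. Its levels were 5.80, 5.72 and 6.31 at E10.5, 6.50, 6.34 and 6.27 at E19.5 and 5.74, 5.34 and 5.88 in young adults. The E19.5 arrays lay above all young adult arrays and overlapped those of E10.5. E19.5 exceeded young adult by 0.72 ± 0.18 (adjusted p = 0.00224) and E10.5 by 0.42 ± 0.18, which missed the limit (adjusted p = 0.0504), and the 10 embryonic stages did not differ past it (adjusted p = 0.0721). Without the third E10.5 array E19.5 against E10.5 was called, with E10.5 lower (log2 difference -0.61, adjusted p = 0.00983). Against young adult, Edn1 at E10.5 differed by 0.29 ± 0.18 and did not pass (adjusted p = 0.146). Under the other processing choices that difference ranged from -0.23 to 0.999, with a lowest adjusted p of 0.018. Ece1, which cuts the precursor to active endothelin-1, ran through a trough. Its levels were 8.39, 8.10 and 8.17 at E10.5, 7.61, 7.77 and 7.35 at E17.5, 8.12, 7.96 and 7.52 at E19.5 and 8.52, 8.28 and 8.43 in young adults. All arrays of E10.5 and of young adult lay above those of E17.5. In this brightest probe set the level of Ece1 fell by 0.07 log2 per day over the embryonic stages (adjusted p = 8.07e-06). It was lower than in young adults at every stage from E13.5 to E19.5 (by 0.84 ± 0.14 at E17.5, adjusted p = 1.57e-05), and at E10.5 differed from young adult by -0.19 ± 0.14 (adjusted p = 0.237). Against E19.5, E10.5 was higher by 0.36 ± 0.14 (adjusted p = 0.0411), which was -0.09 (adjusted p = 0.669) after a further quantile normalization, and the call was lost without the first or the third E10.5 array (0.27 and 0.38) or the mixed-sex E19.5 array (0.18). A second expressed probe set of Ece1 was lower at E10.5 than in young adults (-0.76 ± 0.23, adjusted p = 0.00478). Its slope over all embryonic days did not pass (-0.06 ± 0.03, adjusted p = 0.0543), nor did E10.5 against E19.5 (0.05, adjusted p = 0.872). In the added fits it fell over E10.5 to E14.5 (-0.21 ± 0.04 per day, adjusted p = 0.000601) and rose over E14.5 to E19.5 (0.14 ± 0.05, adjusted p = 0.0422).

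Ednra, the receptor through which endothelin-1 acts on the neural crest of the outlet, was higher in the embryo than in the young adult at every stage. Its levels were 7.0, 7.09 and 6.53 at E10.5, 6.42, 6.07 and 6.06 on the next day, 6.28, 5.86 and 5.68 at E19.5, 4.69, 4.68 and 4.54 in the young adult and 5.56, 5.18 and 5.23 in old adults. The arrays of E10.5 lay above every other array except 1 at E12.5, and the young adult arrays lay below every other array. E10.5 was 4.71-fold above young adult (2.24 ± 0.24, adjusted p = 2.34e-09) and E19.5 2.47-fold above it (1.31 ± 0.24, adjusted p = 7.63e-05). The second brightest probe set gave the same fall from E19.5 to young adult (1.43 ± 0.21, adjusted p = 3.31e-06). Against old adults E19.5 did not pass in the brightest (0.62 ± 0.24, adjusted p = 0.0547) and passed in the second (0.99 ± 0.21, adjusted p = 0.000464). Within the embryo the 2 disagreed. The brightest was higher at E10.5 than at E19.5 by 0.93 ± 0.24 (adjusted p = 0.00223), the other lower by 0.34 (adjusted p = 0.193), with slopes of -0.08 ± 0.02 (adjusted p = 0.00176) and 0.04 ± 0.02 (adjusted p = 0.0163) per day. With the hybridization controls as a covariate the slope of the brightest was 0.03 per day (adjusted p = 0.452), E10.5 differed from E19.5 by -0.01 (adjusted p = 0.991) and from young adult by 0.55 ± 0.32 (adjusted p = 0.234). Of the 2 dimmer probe sets, both with stage means below 5 throughout, 1 was higher at E10.5 than in young adults (0.95 ± 0.22) and 1 lower (-0.62 ± 0.20, adjusted p = 0.0077). Ednra is known from vascular smooth muscle and fibroblasts as well, and the mean level of 4 smooth muscle markers ran from 7.89 to 8.23 at E10.5, from 7.04 to 7.75 by E19.5, from 8.38 to 8.99 in young and from 7.38 to 7.83 in old adults, that of 4 fibroblast markers from 7.42 to 7.78, 8.75 to 9.0, 8.07 to 8.71 and 7.36 to 8.39. Their part in the course of Ednra was not tested.

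Ednrb fell over E10.5 to E14.5 and had its lowest stage mean at E17.5. Its highest was in old adults, whose arrays overlapped those of E10.5 to E12.5 and were not tested against them. Its levels were 7.59, 7.69 and 6.82 at E10.5, 7.51, 7.23 and 7.25 on the next day, 7.07, 7.62 and 7.35 at E12.5, 6.66, 6.72 and 6.43 at E13.5 and 5.47, 5.14 and 5.07 at E17.5. At E19.5 they were 6.37, 6.18 and 5.59, in young adults 6.15, 6.66 and 7.10 and in old adults 8.16, 7.87 and 7.34. All arrays up to E12.5 lay above all arrays from E13.5 to E19.5, and the old adult arrays lay above the young. E10.5 exceeded E19.5 by 1.32 ± 0.29 (adjusted p = 0.000541), the slope was -0.24 ± 0.03 per day (adjusted p = 5.35e-08), and the second brightest probe set gave -0.16 ± 0.03 (adjusted p = 1.05e-05). In the added fits the brightest fell over E10.5 to E14.5 (-0.28 ± 0.06 per day, adjusted p = 0.000946). Over E14.5 to E19.5 neither the brightest (-0.08 ± 0.06, adjusted p = 0.402) nor the second (0.02 ± 0.04, adjusted p = 0.806) passed. Against young adult Ednrb was 0.73 ± 0.29 higher at E10.5 (adjusted p = 0.0313) and 1.41 ± 0.29 lower at E17.5 (adjusted p = 0.00026). The E10.5 difference lost its call without the first or second E10.5 array (0.62 and 0.57) or without the male or mixed-sex young adult array (0.49 and 0.74), and was -1.39 (adjusted p = 0.00578) with the hybridization controls as a covariate, so its direction depends on that term. With that covariate E10.5 exceeded E19.5 by 0.15 (adjusted p = 0.8) and the slope was -0.11 ± 0.03 per day (adjusted p = 0.0134). The other 2 probe sets differed from young adult by 0.16 and 0.19 at E10.5 and did not pass.

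**Figure D3:**
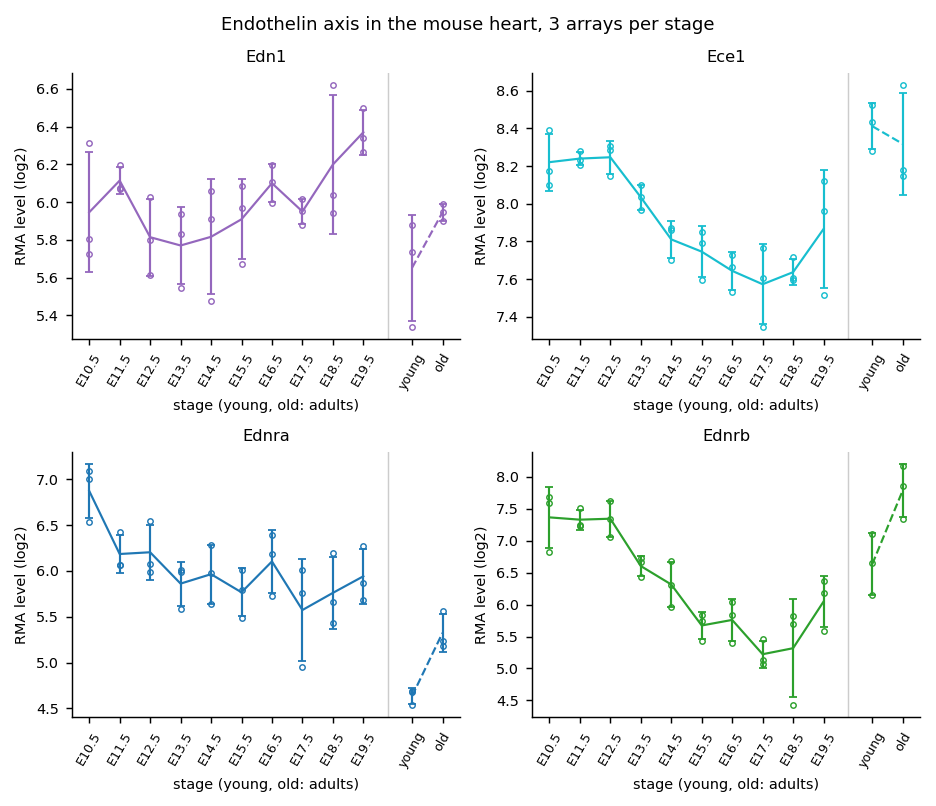
Levels of Edn1, Ece1, Ednra and Ednrb by stage. Each panel plots the RMA level (log2) of the gene's brightest probe set against stage; open circles are arrays, lines and bars the mean ± SD of 3 arrays, and the dashed line joins young and old adult. Ednrb and Ece1 both have their lowest mean at E17.5, and Ednra has its lowest in young adults.

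The log2 ratio of 2 members within an array, each read from its brightest probe set, was compared between early embryo (E10.5 to E12.5, 9 arrays), late embryo (E17.5 to E19.5, 9 arrays) and adult (young and old, 6 arrays) by exact two-sided permutation, with adjustment over 8 tests, of which 6 passed. Arrays of neighbouring stages were pooled in these groups, and only changes of a ratio are read, since 2 probe sets share no common scale. All early arrays lacked the title prefix and all late embryo arrays carried it, so stage and prefix cannot be told apart between them. Stage means of the hybridization controls also differed, at 9.9 to 10.43 in early and 11.09 to 11.52 in late embryos. No ratio was tested with either as a covariate. Ednra over Ednrb rose by 1.16 from early to late embryo (-0.93 ± 0.34 to 0.23 ± 0.43, SD, exact adjusted p = 0.000165) and dropped by 2.46 to the adult (-2.23 ± 0.48, exact adjusted p = 0.00032), where no adult array overlapped the late embryo. Nrp1 over Nrp2 dropped by 1.60 (exact adjusted p = 0.00011) and by a further 1.10 (exact adjusted p = 0.00107). With the mean of each gene's probe sets in place of the brightest, these changes were -0.68 (exact adjusted p = 0.000165) and -0.42 (exact adjusted p = 0.00767), and the dimmest probe set of Nrp1 rose from E10.5 to E19.5 by more than that read for Nrp2 (E10.5 minus E19.5 of -1.82 against -1.47). Sema3c dropped by 1.86 relative to Sema3a and by 1.39 relative to Sema3d from early to late embryo (exact adjusted p = 0.00011 for each), with no overlap of arrays. The probe set read for Sema3a fell the least of its 3, the others differing by 1.76 and 2.02 between E10.5 and E19.5, and over the mean of each gene's probe sets Sema3c dropped by 0.41 relative to Sema3a (exact adjusted p = 0.0289) and by 0.66 relative to Sema3d (exact adjusted p = 0.00173). From late embryo to adult these ratios changed by 0.26 (exact adjusted p = 0.36) and 0.46 (exact adjusted p = 0.0527). The smallest p that these tests can give is 4.11e-05 for early against late embryo and 0.0002 for late embryo against adult.

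**Figure D4:**
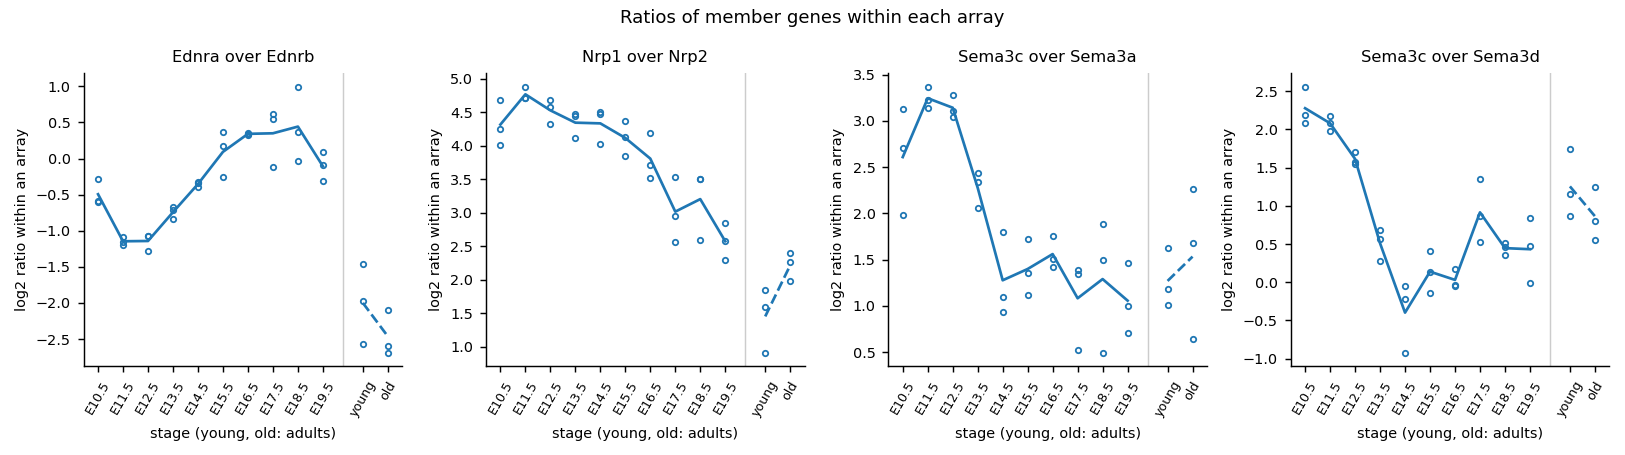
Log2 ratios of member genes within each array by stage. Open circles are arrays and lines join stage means, dashed for the adults. Ednra over Ednrb lies between -1.27 and -0.29 up to E12.5, between -0.32 and 1.00 from E17.5 to E19.5 and between -2.69 and -1.45 in the adults, while Nrp1 over Nrp2 is lower in late embryos than in early ones and lower again in adults.

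Between old and young adult, 2 of the 26 probe sets were called, both higher in old adults, where 6.96% of all probe sets were called, 3.83% higher and 3.13% lower. The share of members was thus near that of the whole array. At an unadjusted p under 0.05 the count was 8, for which no share of the whole array is given, so nothing is read from it. The 2 were the read probe sets of Ednrb, 2.22-fold higher (1.15 ± 0.29, adjusted p = 0.015), and Nrp1, at 10.35, 10.72 and 10.43 in old against 9.34, 10.08 and 10.11 in young adults (0.65 ± 0.20, adjusted p = 0.0378). Neither gene's arrays overlapped between the ages, and the other probe sets of both genes differed in the same direction without passing. No member was called when only the 6 adult arrays were modelled (0.0133% of all probe sets called), when the hybridization controls were a covariate (Ednrb 0.41, Nrp1 0.28, 4.91% of all called), or without the male array of either age (Ednrb 0.91 without the young and 0.97 without the old one). Nrp1 also lost its call without the mixed-sex or the female old adult array (adjusted p = 0.138 and 0.0521), where Ednrb kept its own (1.12 and 1.38). Of 6 endothelial markers, Pecam1 (1.19) and Kdr (0.81) were higher in old adults and none lower, and the list's mean level ran from 7.0 to 7.16 in young and from 7.47 to 8.16 in old adults. The part of these cells in the difference was not tested.

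In each main comparison the calls among the members were set beside those over the whole array. For E10.5 against young adult, 20 of 26 probe sets were called, 11 higher and 9 lower, where 63.0% of all probe sets were called, 27.1% higher and 35.9% lower. The median difference of the members was 0.17, that of all probe sets -0.19 and that of probe sets above 5 was 0.41. For E10.5 against E19.5, 16 members were called, 10 higher and 6 lower, against 45.5% of all probe sets, 21.8% higher and 23.7% lower, and the medians were 0.28 and -0.15. For E19.5 against young adult, 10 members were called, 3 higher and 7 lower, against 29.1% of all, 15.5% higher and 13.6% lower, and the medians were -0.17 and -0.04. The slope on embryonic day was called for 23 members, 9 rising and 14 falling, against 67.6% of all, 42.1% rising and 25.4% falling. A model of only the probe sets with a stage mean above 5 held 18 of the members. It called 14 of them for E10.5 against young adult, 13 against E19.5, 9 for E19.5 against young adult and 16 for the slope. Of all probe sets in that model 74.1%, 63.8%, 48.2% and 73.7% were called. Over the 12 stages the F test called 24 of the 26 (68.0% of all probe sets) and over the 10 embryonic stages 20 (45.9%). Under the study's stricter limits for any stage against young adult, 3 probe sets passed, 1 each of Nrp2, Ednra and Nrp1 (8.62% of all). Between males and females, paired by stage from E13.5 onward, no member was called by limma, with 2 at an unadjusted p under 0.05 and a lowest adjusted p of 0.526, where 0.0488% of all probe sets were called. No share of the whole array at the unadjusted limit is given, so nothing is read from the 2.

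**Figure D5:**
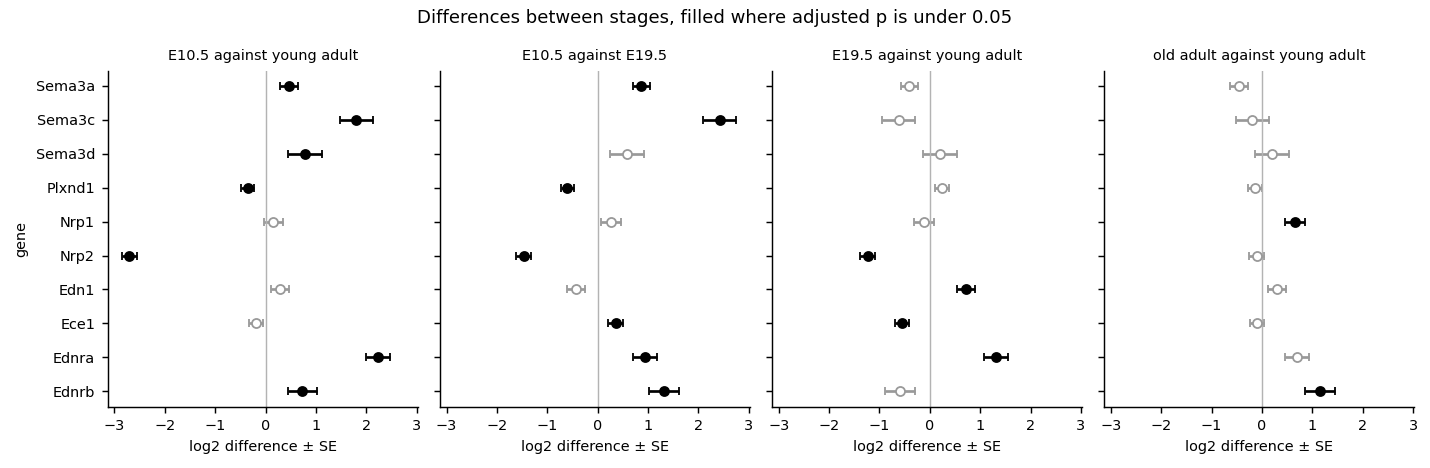
Log2 differences of the 10 members in 4 comparisons, with SE from the limma fit. Each row is a gene, read from its brightest probe set, and values to the right of the vertical line are higher in the stage named first; filled points have an adjusted p under 0.05. Nrp2 lies farthest to the left for E10.5 against young adult (-2.71) and Sema3c farthest to the right for E10.5 against E19.5 (2.42).

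The scale on which the arrays are set against each other bears on these counts. Centring each array on the median of its probe sets above 5 shifted every difference down by 0.53 for E10.5 against young adult, 0.34 for E10.5 against E19.5, 0.18 for E19.5 against young adult and 0.14 for old against young adult, and shifted slopes up by 0.04 per day. The members then split into 5 higher and 11 lower for E10.5 against young adult, 7 and 10 for E10.5 against E19.5, 3 and 11 for E19.5 against young adult, 1 and 0 for age, and 10 rising and 10 falling. Over the whole array, higher calls went from 12222 of 28415 to 7412 of 36188 for E10.5 against young adult, from 9830 of 20540 to 6577 of 31664 against E19.5, from 7000 of 13120 to 4882 of 14886 for E19.5 against young adult, from 1726 of 3138 to 939 of 3018 for age, and rising slopes from 19005 of 30481 to 28964 of 36515. Sema3c, Ednra and Nrp2 kept their directions and calls for E10.5 against young adult on that scale, with 1.27, 1.71 and -3.23.

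The mixed-sex arrays were often the lowest for these genes, on some days of gestation more than on others. On 3 late days the mixed-sex array was the lowest of the 3 for 7 of the 10 read probe sets on E17.5, 6 on E18.5 and 8 on E19.5, Sema3c, Sema3d, Nrp1, Ednra, Ednrb and Ece1 being among them each time. It was also the lowest for 56.8%, 51.8% and 51.6% of all probe sets above 5, and its hybridization controls were the highest of each stage, at 12.01, 11.56 and 11.39. Earlier, at E13.5, it was the lowest for 8 of the 10 and for 52.6% of all probe sets above 5, again with the highest controls (11.28 against 10.57 and 10.71), and at E15.5 for 7 of the 10, against 25.7% of all, with the lowest controls (10.73). These earlier arrays were kept throughout. Without the 3 late arrays E10.5 against E19.5 still called 16 members, where 37.1% of all probe sets were called, with Sema3c at 2.23, Ednrb at 1.09 and Ednra at 0.80, while Ece1 dropped to 0.18 and was no longer called (adjusted p = 0.304) and Edn1 was called (-0.48, adjusted p = 0.0419). E19.5 against young adult then called 7 members rather than 10, against 30.1% of all probe sets.

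The other genes of the pathways were taken as lists chosen with earlier results of these data known. Of 17 other semaphorins, 10 had a stage mean above 5. At E10.5, 3 of the 17 were higher than in young adults and 12 lower, with a median difference of -0.63. Over all probe sets 63.0% were called, 27.1% higher and 35.9% lower. The median was -0.19 over all probe sets and 0.41 over those above 5. The lists take the brightest probe set of each gene and the whole array takes every probe set, so the 2 are not matched. Sema7a, a membrane-anchored semaphorin, was lower at E10.5 by 2.63 ± 0.25, Sema5a by 1.81 ± 0.19 and the secreted Sema3b by 2.16 ± 0.21. Sema6d, which acts in the growth of the ventricular wall, was higher by 1.55 ± 0.26 and Sema4b by 0.48 ± 0.14. Of 8 other plexins 4 were higher and 2 lower, with a median of 0.31 that turned to -0.06 and -0.22 under further quantile normalization and centring. Plxnc1, the receptor of Sema7a, was higher by 2.55 ± 0.29, Plxna1 by 1.88 ± 0.13 and Plxnb2 by 1.49 ± 0.16, and Plxnb3 and Plxnb1 were lower by 1.40 and 0.99. Of 11 other genes of the endothelin pathway, 7 with a stage mean above 5, 2 were higher and 5 lower, with a median of -0.19. Ece2, a second converting enzyme, was higher by 0.76 ± 0.17, the ligand Edn3, which acts through Ednrb, was lower by 2.10 ± 0.43, and the phospholipases Plcb4 and Plcb1, which carry receptor signals onward, were lower by 2.04 ± 0.20 and 1.62 ± 0.20.

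Of 22 regulators of the outflow tract and neural crest, 14 had a stage mean above 5. At E10.5, 12 of the 22 were higher than in young adults and 6 lower, with a median of 0.97. Over all probe sets 27.1% were higher and 35.9% lower. After centring 11 of the regulators were higher and 10 lower, with a median of 0.44, where 80.2% of all probe sets were called. Sox11, Twist1 and Sox4, transcription factors of neural crest and mesenchyme, were higher by 3.78 ± 0.22, 3.38 ± 0.22 and 3.09 ± 0.22, and Msx1 was lower by 0.92 ± 0.18. Of 7 neural crest and Schwann cell markers 2 reached 5 in any stage, 1 was higher and 5 were lower at E10.5 than in young adults, and the list's mean level ran from 4.02 to 4.09 at E10.5, from 3.74 to 4.08 at E19.5 and from 4.22 to 4.47 in young adults. Of 4 epicardial markers 2 were higher and 1 lower at E10.5, with a mean level of 5.75 to 6.11 there, 4.95 to 5.45 by E19.5 and 4.01 to 4.93 in young adults. Of 6 endothelial markers none was higher and 4 were lower, with 5.84 to 6.52 at E10.5 and 7.0 to 7.16 in young adults. How far these cell types enter the members' differences was not tested.

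The members were also compared by the shape of their 12 stage means, which come from the same 36 arrays. Among the 45 pairs of members, Ednrb and Ece1 were most alike (Pearson r = 0.91), followed by Sema3c with Ednrb (0.71) and with Sema3a (0.71), and Sema3c and Plxnd1 were most opposed (-0.81). Among 11316 other genes with 1 expressed probe set each, those closest to Sema3c were Angpt1 (0.98), Apela (0.97) and Itga4 (0.97), to Sema3d Pdpn (0.96), Syncrip (0.93) and Pdgfra (0.92), to Sema3a Mrpl40 (0.95), Mylpf (0.94) and Mrpl45 (0.94), and to Nrp2 Pfkm (1.00), Abca8a (0.99) and Rnpepl1 (0.99). Closest to Ednra were Snx4 (0.98), Shb (0.98) and Pex2 (0.98), to Ednrb Utrn (0.98), Tpt1 (0.97) and Ankrd44 (0.97), to Ece1 Me1 (0.97) and Tpm3 (0.97), and to Plxnd1 Gm5785 (0.94), Gprc5a (0.91) and Pcdh17 (0.90). Edn1 and Nrp1, whose stage means varied least with Plxnd1, had their closest genes at 0.89 (Psma6) and 0.85 (Unkl).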

How the data were processed

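Total RNA of mouse hearts was hybridized by the authors to whole-genome Affymetrix mouse arrays. The deposited table holds 1 log2 intensity per probe set and array, background-corrected, quantile-normalized and summarised by the authors with RMA. The labels' processing notes name Affymetrix Expression Console, Partek 6.6 and RMA, and the methods RMA in Bioconductor. The methods describe a column kit with DNase for heart RNA, the labels a Trizol protocol for liver. The methods count separate pups as biological replicates. Scanner files and the study's miRNA arrays were not used here, and the number of arrays limits the precision.

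Groups came from the labels. Members were matched by symbol, and 523 symbols in which the letters na had been lost were restored by gene ID. All 45101 probe sets on 36 arrays were fitted in limma 3.58.1 (R 4.3.3) with 12 stage means, or with a slope on day over 30 embryonic arrays. No probe set was dropped or imputed. P-values were adjusted over all probe sets by Benjamini-Hochberg and called under 0.05. The stricter limits were an adjusted p under 1e-05, a log2 difference above 2 and a mean above 5. Ratios were tested by exact permutation in Python 3.11.15 with NumPy 2.4.6, and figures drawn with matplotlib 3.10.9. Scripts were tested on simulated data. Alternatives were further quantile normalization, centring, a filter at 5, covariates for hybridization controls and title prefix, a replicate block, fewer arrays, a variance trend, the mean of a gene's probe sets and each array left out.

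The members, lists, tests and the rule for named genes (the 3 highest and 3 lowest called and expressed genes of each list for E10.5 against young adult, and the 3 genes most alike each member) were chosen with earlier results of these data known. Some genes that meet the rule are not reported here. Arrays were not paired across stages in the main models. Between E10.5 and E11.5 the correlations of same-numbered arrays' deviations were 0.22, -0.25 and 0.17. Between stages with sexed arrays, those of the same sex label had a median r of 0.042, from -0.575 to 0.596. Of these 135 correlations 56 were above 0.1, so deviations shared between some stages remain.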

Additional observations from a re-analysis of the deposited data

Results flagged for a closer look

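In 12 groups of 6 or 9 arrays, the highest and lowest log2 ratio of each member pair was set against the others, and chance alone flags about 1 in 20 such groups. The log2 ratio of Sema3c over Sema3a in the early embryo was picked out, where the lowest of 9 arrays had 1.98 and its gap to the next was 0.525 of the whole range. It was the second E10.5 array, which had the lowest Sema3c level (7.89) and the highest Sema3a level (5.91) of its stage.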

How the results depend on the processing

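Leaving out single arrays, 15 to 18 of the 26 probe sets were called for E10.5 against young adult, 14 to 15 against E19.5, 5 to 10 for E19.5 against young adult (5 without the mixed-sex E19.5 array), 0 to 2 for age and 20 to 24 for the slope, where 54.6% to 60.2%, 33.0% to 46.5%, 23.4% to 27.5%, 4.19% to 9.68% and 63.0% to 69.7% of all probe sets were called. With the hybridization controls as a covariate 13 were called for E10.5 against young adult (24.2% of all), 0 for age (4.91%) and 14 for the slope (24.8%). With the title prefix as a covariate 10 (31.4% of all) and, against E19.5, 6 (14.5%) were called. Both counts rest on a prefix term set by the E16.5 arrays alone. With only the compared arrays, 5 were called for E19.5 against young adult (19.5% of all) and 0 for age (0.0133%), and after centring 1 for age (6.69%). The slope called 8 over E14.5 to E19.5 (15.6% of all) and 0 over prefixed arrays alone (0.426%). With a replicate block the counts were 20, 16, 9, 2 and 23, of all 62.2%, 44.8%, 28.5%, 6.35% and 66.5%. Of the 8 ratio tests 6 to 7 passed without single arrays, the change being Sema3c over Sema3d from late embryo to adult (0.33 to 0.56), which passed without the male or mixed-sex E17.5, the mixed-sex E19.5 or the mixed-sex old adult array. The slope of Edn1 (0.04) lost its call without any 1 of 5 arrays of E10.5, E18.5 and E19.5, and Ece1 without the mixed-sex E19.5 array missed it for E19.5 against young adult (-0.37). Of 1050 single-gene values, 882 kept direction and side of the threshold, 91 lost and 26 gained the call, and 51 turned, 2 of them called both ways. The causes were not tested.

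For E10.5 against young adult the turned values were Nrp1 -0.15 and Edn1 -0.10 after quantile normalization, Sema3a -0.065, Nrp1 -0.37 and Edn1 -0.23 after centring, Sema3d -0.68, Nrp1 -0.90 and Ednrb -1.39 with hybridization controls, Nrp1 -0.77 over its probe sets' mean and Nrp1 -0.10 to 0.29 without single arrays. Against E19.5 they were Nrp1 -0.036 and Ece1 -0.086 (quantile), Nrp1 -0.072 (centred), Sema3d -0.23, Nrp1 -0.32 and Ednra -0.006 (hybridization controls) and Nrp1 -0.55 (mean of probe sets). For E19.5 against young adult they were Sema3d -0.45 (hybridization controls), Sema3a 0.047 (old adult as reference), and without single arrays Sema3d -0.034 to 0.59 and Nrp1 -0.37 to 0.019. For age they were Sema3d -0.32 and Nrp2 0.031 (hybridization controls), Nrp2 0.19 and Ece1 0.12 (mean of probe sets), and without single arrays Sema3d -0.31 to 0.63, Nrp2 -0.19 to 0.017 and Sema3c -0.66 to 0.39.

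Turned slopes per day were Nrp1 0.026 (quantile) and 0.029 (centred), Nrp1 0.019 and Ednra 0.025 (hybridization controls), Sema3d 0.014 and Nrp1 0.049 (prefix covariate), Edn1 -0.006, Nrp1 0.074 and Sema3d 0.016 (arrays without the prefix), Ece1 0.12, Ednra 0.035, Ednrb 0.20, Sema3a 0.008 and Sema3d 0.004 (arrays with it), Edn1 -0.06, Nrp1 0.073 and Sema3d 0.15 (E10.5 to E14.5), Nrp1 0.021 (without the late mixed-sex arrays) and -0.013 to 0.002 (without single arrays). The slope with only the compared arrays is the reported one and was not rerun. The alternatives of split slopes, daily steps, the old adult reference and the late mixed-sex arrays were chosen after seeing the data.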

Other observations

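Of the 234 steps between neighbouring embryonic days, 9 for each of 26 probe sets, 3 were called, all of Sema3a. Over all probe sets 2.53% were called from E10.5 to E11.5, 1.25% from E12.5 to E13.5, 1.33% from E18.5 to E19.5 and at most 0.0976% at any other step. They were the brightest probe set and the second from E10.5 to E11.5 (-0.66 and -0.96, adjusted p = 0.0363 and 0.0373) and the dimmest from E12.5 to E13.5 (-0.86, adjusted p = 0.0165). The dimmer 2 of these have every stage mean below the limit of 5. Old adults exceeded E19.5 for Ednrb by 1.74 ± 0.29 (adjusted p = 2.19e-05).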
